A study of Mus musculus with 8 samples.

Results

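The mitochondrial genome of the mouse carries 37 annotated genes, which were taken by the rule that their symbol in the GENCODE M21 annotation begins with mt-. They comprised 13 mRNA genes, 22 tRNA genes and 2 rRNA genes, out of 49315 genes in the count table. The count table held 35 of them, and the rRNA genes mt-Rnr1 and mt-Rnr2 were not analysed here. All 8 libraries came from bone marrow-derived macrophages (BMDMs), primary macrophages grown from the marrow of C57BL/6 mice in macrophage colony-stimulating factor at 10 ng/ml. The cells were transfected, by lipofection, with a gapmeR against the long non-coding RNA MAARS (Gm14461; 4 libraries, replicates 9, 11, 13 and 15) or with a negative control gapmeR (negative control #1; 4 libraries, replicates 2, 5, 6 and 7), at 25 nM by the sample labels. A gapmeR is an antisense oligonucleotide whose pairing with an RNA lets RNase H cut that RNA. Total RNA was ribodepleted and read as pairs of 100 bases, and the authors counted the reads per gene. The labels do not give the animals, so p-values measure the spread between these libraries, which may be technical.

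The mitochondrial genome is a small circle present in many copies per cell. A dedicated polymerase transcribes both of its strands into long precursors that cover many genes. The tRNAs that lie between the mRNAs are cut out of these precursors, which releases the mRNAs for polyadenylation, and the mRNAs encode core subunits of respiratory complexes I, III and IV and of the ATP synthase. All other proteins of the respiratory chain, and the whole machinery that copies, transcribes, processes and degrades mitochondrial RNA, are encoded in the nucleus. In macrophages, respiration and the release of mitochondrial nucleic acids into the cytosol are linked to inflammatory state.

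The mitochondrial mRNAs with countable sequence rose together after the MAARS gapmeR. All 7 such mRNAs (mt-Nd1, mt-Nd2, mt-Co1, mt-Nd4, mt-Nd5, mt-Nd6 and mt-Cytb) were 1.39-fold to 1.99-fold higher, and in each of them every MAARS gapmeR library lay above every control library. The tRNA genes did not move as a group: of 9 with enough counts to be tested, 3 rose, 2 fell and 4 did not pass the test. Of all genes tested, 45.4% passed the same test, with 21.3% higher and 24.0% lower. For 19.3% of all genes tested, every MAARS gapmeR library lay above every control library. The other 6 mRNA genes had at most 12 counts in any library and could not be compared.

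Those 6 mRNA genes lie side by side, inside a stretch of the mitochondrial genome that is also present on chromosome 1. In the GENCODE M21 annotation of build GRCm38, 7 unprocessed pseudogenes on the minus strand between chr1:24611535-24616197 mirror chrM:6381-11042, a stretch of 4662 mitochondrial bases, in the same gene order. Aligned over 4149 bases, the pseudogenes and the mitochondrial genes differed at 7 positions, of which 6 were in the copy of the 3′ part of mt-Co1 and 1 in the copy of mt-Nd3. The copies of mt-Co2, mt-Atp6, mt-Co3 and mt-Nd4l and of the 5′ part of mt-Nd4 were identical to the mitochondrial genes over their whole length. To show what a read has to be told apart by, the first 30 bases of mt-Co3 (chrM:8607-8636, plus strand) and of its copy Gm28437 (chr1:24613942-24613971, minus strand), and of mt-Co2 (chrM:7013-7042, plus strand) and its copy Gm28661 (chr1:24615536-24615565, minus strand), are given from the GENCODE M21 transcripts, 5′ to 3′. For mt-Nd3 (chrM:9459-9488, plus strand) and Gm28438 (chr1:24613090-24613119, minus strand) the capital marks the single position at which the whole pseudogene and the gene differ.
mt-Co3: atgacccaccaaactcatgcatatcacata
Gm28437: atgacccaccaaactcatgcatatcacata
mt-Co2: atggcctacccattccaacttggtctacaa
Gm28661: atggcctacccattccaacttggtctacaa
mt-Nd3: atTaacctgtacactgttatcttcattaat
Gm28438: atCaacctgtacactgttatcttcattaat

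Low counts coincided with this stretch. Of all stretches of 100 bases in mt-Co2, 99.5% also occurred in an annotated nuclear transcript, and the share was 99.5% for mt-Atp6, 99.9% for mt-Co3, 97.6% for mt-Nd3 and 98.5% for mt-Nd4l. For mt-Nd1, mt-Nd5, mt-Nd6 and mt-Cytb it was 0%, for mt-Nd2 3.19%, for mt-Co1 30.8% and for mt-Nd4 60.8%. Of the 446 shared stretches of mt-Co1, 380 occur in the chromosome 1 copy of its 3′ part, and those of mt-Nd4 lie at its 5′ end. A copy of mt-Co1 on chromosome 2, Gm13340, shares 80 stretches, whose place in the gene was not read. The counts of these 2 genes can thus rest mainly on their unshared parts. mt-Atp8, which overlaps mt-Atp6 by 43 bases, shared no stretch with an annotated transcript, but it lies in a gap of 230 bases between mt-Co2 and mt-Atp6 that has a counterpart of 233 bases on chromosome 1 whose sequence was not read here. In all, 11 members lie wholly inside the stretch: mt-Co2, mt-Atp8, mt-Atp6, mt-Co3, mt-Nd3, mt-Nd4l, mt-Ts1, mt-Td, mt-Tk, mt-Tg and mt-Tr. How the authors treated reads that map to several places is not given in the sources used here, and whether it set these counts was not tested.

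**Figure D1:**
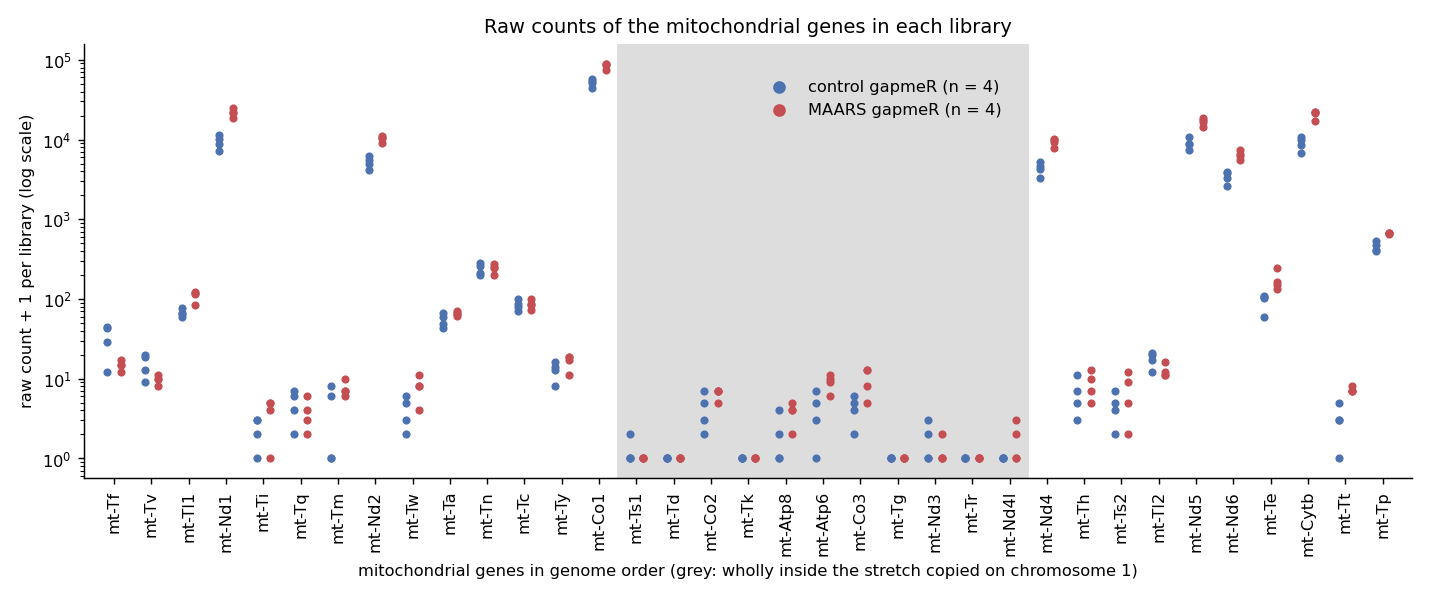
Raw count plus 1 in each library (log axis) of the 35 mitochondrial genes in the table, in genome order, for 4 control gapmeR and 4 MAARS gapmeR libraries; the grey band covers the 11 genes wholly inside the stretch copied on chromosome 1. No gene in the band exceeded 12 counts in any library, while mt-Co1 beside it reached 89265.

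The libraries held 19287279 to 20567123 counts on genes in the control gapmeR group and 20839671 to 24541205 in the MAARS gapmeR group, so that depth was higher in every MAARS gapmeR library, and its part in the results below was not tested. A count of 0 allowed up to 0.122 to 0.156 CPM (counts scaled to the library total), taking 3 counts as the limit. Counting intervals and this limit cover counting error only. MAARS itself was at 13.1 ± 1.36 CPM (SD, n = 4) in the control group and 6.82 ± 0.844 CPM (SD, n = 4) after the MAARS gapmeR, a log2 fold change of -0.95 ± 0.112 (SE; edgeR's quasi-likelihood test, Benjamini-Hochberg adjusted p = 5.8e-05), and the groups did not overlap. Over all genes, 5919 of 13051 tested changed at an adjusted p under 0.05 by the same test, which is 45.4% of them, with 21.3% higher and 24.0% lower, and the median log2 fold change was 0.01. The groups failed to overlap in CPM for 42.1% of the genes tested, and for 19.3% with the MAARS gapmeR group higher. Macrophage markers were abundant in all libraries, with a summed level of 13836 to 17118 CPM in the control group and 17011 to 20241 CPM in the MAARS gapmeR group, and of the 8 markers 5 rose and 2 fell, among the latter Fcgr1. Markers of T cells, B cells, dendritic cells and erythroid cells each summed to at most 2.41 CPM, and none of the 5 fibroblast markers tested (440 to 1010 CPM against 694 to 1200 CPM, summed) or of the 5 neutrophil markers tested (55.0 to 154 CPM against 57.8 to 92.9 CPM) was called by edgeR, DESeq2 or limma-voom, and 1 of them, a fibroblast marker, had an unadjusted p under 0.05. In alternative edgeR fits, 1 fibroblast marker was higher with upper-quartile factors or no factors and without MAARS gapmeR replicate 9, 3 were higher without control gapmeR replicate 7, and 2 were higher and 1 lower with no filter. Without control gapmeR replicate 5, 1 fibroblast and 1 neutrophil marker were lower, and 1 neutrophil marker was also lower with no filter. Their part in the mitochondrial results was not tested. In bulk RNA, fewer cells of a type and less RNA per cell cannot be told apart.

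Taken as a sum, the mitochondrial genes took a larger share of the counts after the MAARS gapmeR. The share of all counts was 0.548%, 0.482%, 0.397% and 0.448% in the control libraries (replicates 2, 5, 6 and 7 in turn), and 0.868%, 0.717%, 0.694% and 0.796% in the MAARS gapmeR libraries (9, 11, 13 and 15 in turn). Every MAARS gapmeR library lay above every control library, and the lowest MAARS gapmeR share exceeded the highest control share by more than the counting error (exact Clopper-Pearson 95% interval of 0.690% to 0.697% against 0.545% to 0.552%). The group means were 0.469% ± 0.0636 (SD, n = 4) and 0.769% ± 0.0793 (SD, n = 4), a ratio of 1.64. Nearly all of this was mRNA, with 75587 to 106077 mRNA counts per control library and 146851 to 179380 per MAARS gapmeR library. The tRNA genes together gave 968 to 1263 counts in control libraries and 1303 to 1507 in MAARS gapmeR libraries. As CPM the summed tRNA counts overlapped between the groups, with 55.5 ± 7.16 CPM (SD, n = 4) against 62.5 ± 4.30 CPM (SD, n = 4). These shares do not include the rRNA genes, and they describe ribodepleted RNA.

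The number of mitochondrial genes called was read against the shares over all genes. Of the 35 genes in the table, 16 passed edgeR's filter on low counts, and 12 of these were called by edgeR's quasi-likelihood test, 10 higher and 2 lower, beside background shares of 45.4%, 21.3% and 24.0%. Among the mRNA genes all 7 that passed the filter were called higher, with a median log2 fold change of 0.77 (range 0.47 to 0.99) beside a median of 0.01 over all genes tested. For the same 7 the groups did not overlap, beside 19.3% of all genes in that direction. Control gapmeR replicate 6 was the lowest library in all 7 mRNAs.

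Complex I, the NADH dehydrogenase through which electrons enter the respiratory chain, was represented by 5 mRNAs. mt-Nd1 (ENSMUSG00000064341, chrM:2751-3707, plus strand), a subunit of its membrane arm, was at 590.5, 518.7, 384.1 and 428.3 CPM in the control gapmeR libraries and at 1037, 854.5, 860.4 and 1069 CPM in the MAARS gapmeR libraries, in the order of replicates above. The lowest treated library stood well clear of the highest control library. With means of 480.4 ± 92.3 and 955.3 ± 114 CPM (SD, n = 4 per group), mt-Nd1 rose by 0.99 ± 0.126 (SE) on the log2 scale (edgeR's quasi-likelihood test, adjusted p = 9.33e-05), the largest change of the 7 mRNAs, within the standard error of that of mt-Cytb given below. mt-Nd4 (ENSMUSG00000064363, chrM:10167-11544, plus strand), a proton-pumping subunit of the same arm, was at 263.7, 235.1, 178.9 and 209.3 CPM in control libraries and 465.8, 370.0, 359.2 and 436.3 CPM in MAARS gapmeR libraries. Its groups were likewise apart, with replicates 9 and 15 the highest of the treated libraries. mt-Nd4 rose by a log2 fold change of 0.88 ± 0.116 (SE; edgeR, adjusted p = 0.00012).

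mt-Nd2 (ENSMUSG00000064345, chrM:3914-4951, plus strand), another proton-pumping subunit, was at 313.8, 279.1, 224.9 and 242.5 CPM in control libraries and 495.8, 421.4, 414.3 and 482.8 CPM in MAARS gapmeR libraries. The groups were separate, and the log2 fold change was 0.77 ± 0.0993 (SE; edgeR, adjusted p = 9.89e-05). mt-Nd5 (ENSMUSG00000064367, chrM:11742-13565, plus strand), the largest of the pumping subunits, was at 545.0, 450.5, 401.9 and 427.3 CPM against 888.3, 698.6, 662.3 and 709.1 CPM. Replicate 9 stood above the other treated libraries, which lay close together, and the log2 fold change was 0.70 ± 0.106 (SE; edgeR, adjusted p = 0.000323).

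mt-Nd6 (ENSMUSG00000064368, chrM:13552-14070, minus strand) is the only mRNA gene on the minus strand, so its RNA comes from the precursor of the opposite strand to the other mRNAs. It was at 196.6, 197.5, 141.4 and 162.9 CPM in control libraries and 315.2, 248.7, 257.8 and 319.7 CPM in MAARS gapmeR libraries. The groups did not overlap, and mt-Nd6 rose by a log2 fold change of 0.71 ± 0.115 (SE; edgeR, adjusted p = 0.000486), a value inside the range of the plus-strand mRNAs. The strand setting of the counting is not given in the sources used here, and without strand, RNA transcribed from the opposite strand over mt-Nd6 would be counted with it. The 3′ ends of mt-Nd5 and mt-Nd6 overlap by 14 bases in opposite directions. The last 30 bases of each are shown for this reason, from chrM:13536-13565 on the plus strand and chrM:13552-13581 on the minus strand, with the overlap in capitals.
mt-Nd5: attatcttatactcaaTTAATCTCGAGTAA
mt-Nd6: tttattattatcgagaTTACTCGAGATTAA

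Complex III and complex IV were represented by a single countable mRNA each. mt-Cytb (ENSMUSG00000064370, chrM:14145-15288, plus strand), which encodes cytochrome b, the catalytic core of complex III, was at 547.9, 507.5, 370.7 and 425.2 CPM in control libraries and 1059, 844.2, 787.2 and 964.0 CPM in MAARS gapmeR libraries. All treated libraries were above all control libraries, with group means of 462.8 ± 79.9 and 913.6 ± 122 CPM (SD, n = 4 per group). mt-Cytb rose by 0.98 ± 0.123 (SE) on the log2 scale (edgeR, adjusted p = 8.4e-05). mt-Co1 (ENSMUSG00000064351, chrM:5328-6872, plus strand), the catalytic subunit of cytochrome c oxidase, was at 2973, 2798, 2386 and 2545 CPM against 4222, 3507, 3406 and 3696 CPM. Its groups were also apart. With a log2 fold change of 0.47 ± 0.0845 (SE; edgeR, adjusted p = 0.000961), mt-Co1 rose the least of the 7 mRNAs, with means of 2676 ± 261 and 3708 ± 363 CPM (SD, n = 4 per group).

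**Figure D2:**
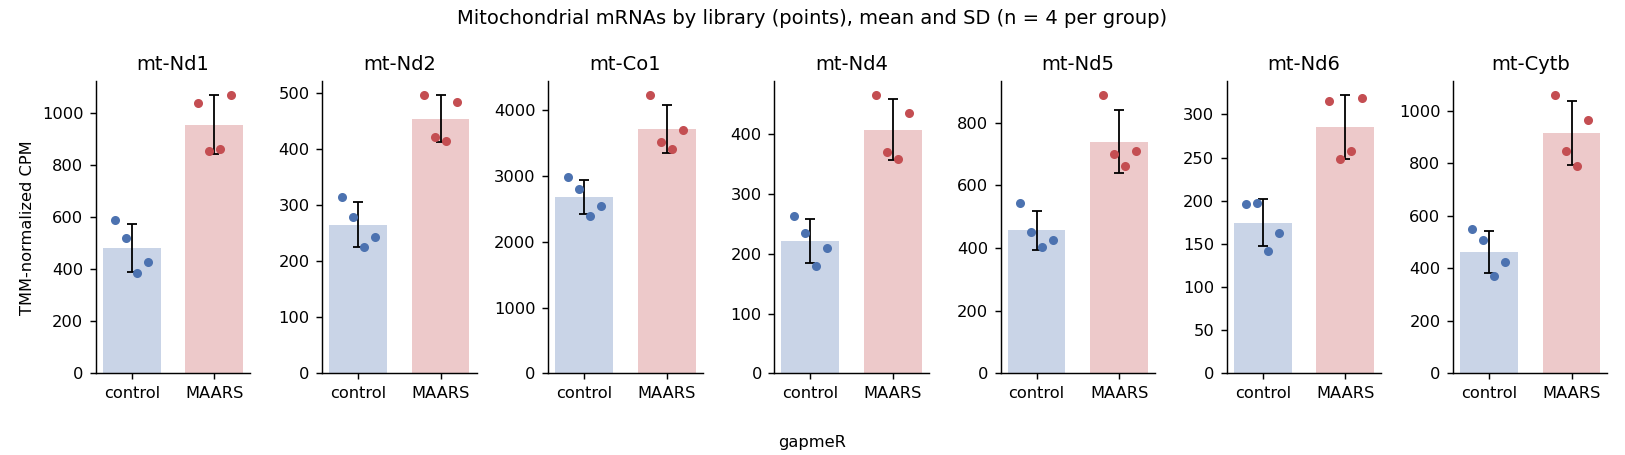
TMM-normalized CPM of the 7 mitochondrial mRNAs, one panel per gene with its own axis from 0; points are libraries, bars are group means and error bars are SD (n = 4 per group). In each panel the 4 MAARS gapmeR libraries lie above the 4 control gapmeR libraries, from a 1.39-fold difference of means for mt-Co1 to 1.99-fold for mt-Nd1.

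The junctions between genes bear on what these counts can hold. The mRNA genes adjoin their tRNA neighbours with few or no bases between them. Where both lie on the same strand, a read from an uncut precursor can cover a tRNA and an mRNA. At chrM:2736-2765 mt-Tl1 passes into mt-Nd1 (in capitals) without a base between them, both on the plus strand. mt-Cytb (chrM:14145-14174, plus strand) starts with its start codon, in capitals, 5 bases after mt-Te, which lies on the minus strand. mt-Nd4l and mt-Nd4 share 7 bases (in capitals; chrM:10144-10173 and chrM:10167-10196, plus strand) and are carried on a single bicistronic mRNA.
mt-Tl1 and mt-Nd1: atcctctccctaataGTGTTCTTTATTAAT
mt-Cytb start: ATGacaaacatacgaaaaacacacccatta
mt-Nd4l end: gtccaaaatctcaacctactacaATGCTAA
mt-Nd4 start: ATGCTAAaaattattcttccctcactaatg

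Levels were compared between the mRNAs only per length. Because a part of mt-Co1 and of mt-Nd4 is also present in the nuclear copy, CPM were divided by the number of 100-base stretches not shared with a nuclear transcript and scaled to 1000 such stretches. On this scale mt-Co1 was at 2676 ± 261 in the control group and 3708 ± 363 after the MAARS gapmeR (SD, n = 4 each), far above the other 6 mRNAs. mt-Nd1 followed, at 560 ± 108 in control libraries and 1113 ± 133 in MAARS gapmeR libraries. In control libraries came then mt-Cytb (443 ± 76.4), mt-Nd4 (442 ± 72.1), mt-Nd6 (416 ± 65.1), mt-Nd2 (292 ± 43.5) and mt-Nd5 (264 ± 36.2). After the MAARS gapmeR the order was the same, with mt-Cytb at 874 ± 117, mt-Nd4 at 812 ± 103, mt-Nd6 at 679 ± 88.8, mt-Nd2 at 499 ± 45.9 and mt-Nd5 at 429 ± 58.6. In both groups the levels of mt-Co1 and mt-Nd1, and of mt-Nd6 and mt-Nd2, were apart by more than their SDs. For all other neighbours in the order, the ranges of mean and SD overlapped. These SDs are between libraries, while the mRNAs were counted in the same libraries. Whether the order held within each library was not compared, so overlapping SDs do not leave it unresolved. Divided by the full gene length in kilobases, mt-Nd4 instead had the lowest level, 161 CPM per kilobase in control libraries against 250 for mt-Nd5, so the place of mt-Nd4 in this order depends on how the copied stretch is treated.

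The mRNAs did not rise by the same factor. Relative to mt-Co1, each of the other 6 was higher in every MAARS gapmeR library than in every control library. Because mt-Co1 rose the least of the 7, the average direction of these ratios followed from the choice of reference. mt-Nd1 gave 17.8 ± 1.70 counts per 100 mt-Co1 counts in control libraries and 25.8 ± 2.14 after the MAARS gapmeR (SD, n = 4 each). For mt-Cytb the ratio was 17.2 ± 1.34 against 24.6 ± 1.28, and for mt-Nd4 it was 8.25 ± 0.569 against 10.98 ± 0.594. These 3 mRNAs moved the most in relative terms. The shifts of mt-Nd2 (9.87 ± 0.514 against 12.2 ± 0.573) and mt-Nd5 (17.02 ± 0.940 against 19.9 ± 0.819) were smaller, and mt-Nd6 had the narrowest gap between the groups, with 5.93 to 7.06 counts per 100 mt-Co1 counts in control libraries and 7.09 to 8.65 in MAARS gapmeR libraries. As a result mt-Co1 made up 56.6% ± 1.56 of the counts of the 7 mRNAs in control libraries and 49.7% ± 1.11 in MAARS gapmeR libraries, while the shares of mt-Nd5 and mt-Nd6 overlapped between the groups. Ratios within a library show unequal change and not which mRNA changed, and these were described without a test.

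**Figure D3:**
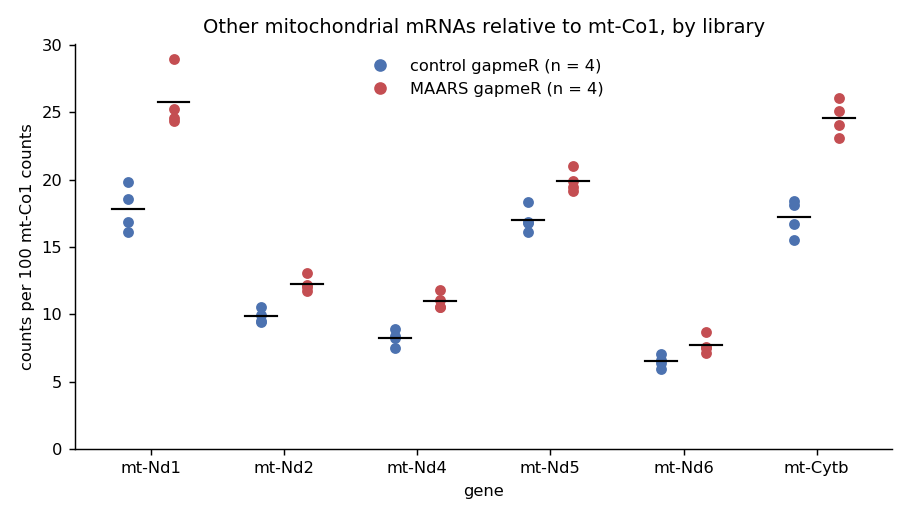
Counts of 6 mitochondrial mRNAs per 100 counts of mt-Co1 in the same library; points are libraries (4 per group) and lines are group means. The groups did not overlap for any of the 6, with mt-Nd1 moving from 17.8 to 25.8 and mt-Nd6 from 6.50 to 7.69.

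The tRNA genes were counted far less deeply. They are 59 to 75 bases long, shorter than the 100-base reads, and whether their counts came from mature tRNAs or from longer RNAs that run over the gene was not tested. Of 22 tRNA genes, 14 had a count in every library and 9 passed the filter. mt-Tp, the proline tRNA and last gene before the control region, had the most counts, 556.4 per library on average, followed by mt-Tn (239.1), mt-Te (132.1), mt-Tl1 (87.5), mt-Tc (83.9) and mt-Ta (59.4). Of these 6, all but mt-Tl1 lie on the minus strand, where mt-Nd6 is the only mRNA gene. The first 30 bases of 3 tRNA genes that are described next are given for reference: mt-Te (chrM:14110-14139, minus strand), mt-Tp (chrM:15393-15422, minus strand) and mt-Tf (chrM:1-30, plus strand).
mt-Te: gtttctgtagttgaattacaacgatgattt
mt-Tp: caagaagtagtttaattagaataccagctt
mt-Tf: gttaatgtagcttaataacaaagcaaagca

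3 tRNA genes rose. mt-Te, the glutamate tRNA between mt-Nd6 and mt-Cytb, was at 5.17, 5.30, 3.14 and 5.25 CPM in control libraries and 6.24, 6.53, 6.76 and 10.6 CPM in MAARS gapmeR libraries. It was the only tRNA gene among the 9 whose groups did not overlap, beside 42.1% of all genes tested. MAARS gapmeR replicate 15 stood far above the others. Its log2 fold change was 0.67 ± 0.206 (SE; edgeR's quasi-likelihood test, adjusted p = 0.0202), and the call was lost without MAARS gapmeR replicate 15 (log2 fold change 0.46, adjusted p = 0.0561) and without control gapmeR replicate 6 (adjusted p = 0.0529). mt-Tl1, a leucine tRNA directly upstream of mt-Nd1, averaged 3.39 ± 0.341 CPM in control libraries and 4.79 ± 0.777 CPM in MAARS gapmeR libraries (SD, n = 4 per group). It rose by 0.50 ± 0.151 (SE) on the log2 scale (edgeR, adjusted p = 0.0185), with overlapping groups, and lost its call without MAARS gapmeR replicate 9 (adjusted p = 0.0582). mt-Tp, at 23.3 ± 2.93 CPM against 29.1 ± 2.06 CPM (SD, n = 4 per group), rose by 0.32 ± 0.0899 (SE) on the log2 scale (edgeR, adjusted p = 0.0134), again with overlapping groups.

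2 tRNA genes fell, both at low counts. mt-Tf, the phenylalanine tRNA that opens the plus-strand gene order ahead of mt-Rnr1, had 28, 42, 43 and 11 counts in the control libraries and 11, 14, 14 and 16 counts in the MAARS gapmeR libraries, in the same order of replicates. Control replicate 7 was as low as the treated libraries and the other 3 control libraries were above all of them. Its log2 fold change was -1.40 ± 0.393 (SE; edgeR, adjusted p = 0.0133). mt-Tl2, the other leucine tRNA, had 20, 16, 11 and 19 counts against 10, 15, 10 and 11, so its groups overlapped. Its log2 fold change was -0.74 ± 0.268 (SE; edgeR, adjusted p = 0.042). By raw library totals, only 2 of the MAARS gapmeR libraries, against all 4 control libraries, reached the filter's limit of 0.483 CPM. The fall of mt-Tl2 lost its call in 12 of 16 alternative analyses.

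The other 4 tRNA genes tested, all on the minus strand and next to each other between mt-Nd2 and mt-Co1, did not pass the test. The alanine tRNA mt-Ta had a log2 fold change of 0.07 (edgeR, adjusted p = 0.77), the asparagine tRNA mt-Tn -0.20 (adjusted p = 0.258), the cysteine tRNA mt-Tc -0.20 (adjusted p = 0.297) and the tyrosine tRNA mt-Ty 0.17 (adjusted p = 0.684). Among the 8 tRNA genes on the minus strand, 6 were tested, of which 2 rose (mt-Te and mt-Tp) and none fell by edgeR. Of all genes tested, 21.3% were higher and 24.0% lower. None of the 6 was lower at an unadjusted p under 0.05 or by DESeq2 or limma-voom either. Counts of small nuclear and nucleolar RNAs, another class of short genes (2943 genes), summed to 27.8 to 33.1 CPM in control libraries and 26.3 to 39.3 CPM in MAARS gapmeR libraries.

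**Figure D4:**
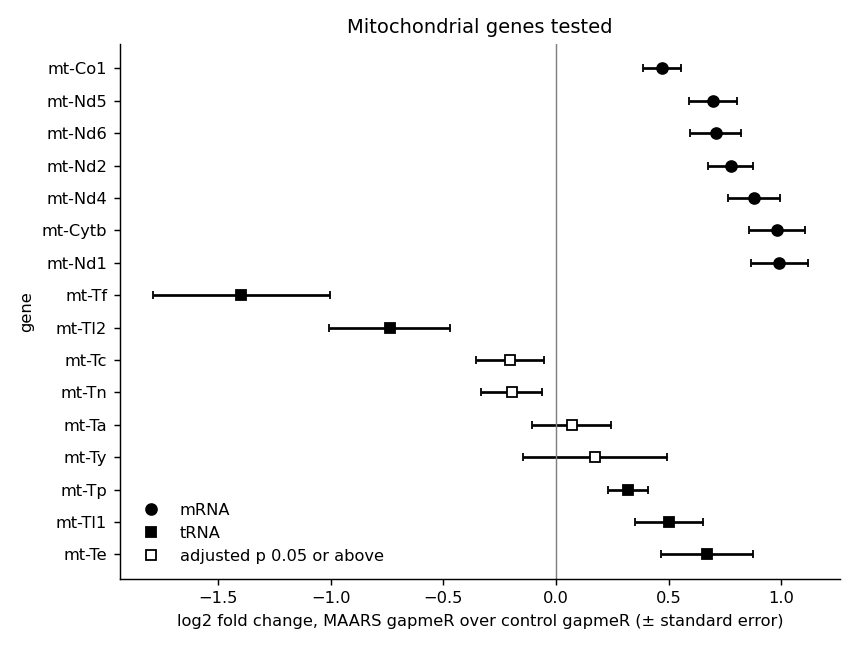
Log2 fold change, MAARS gapmeR over control gapmeR, of the 16 mitochondrial genes tested, with the standard error; circles are mRNAs, squares tRNAs, and open symbols have an adjusted p of 0.05 or above (edgeR's quasi-likelihood test). The 7 mRNAs lie between 0.47 and 0.99, while the 9 tRNAs run from -1.40 to 0.67.

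For the other 19 genes in the table no test was made in the main fit, since their counts were too low. mt-Tv, the valine tRNA between the rRNA genes, came closest, with 19, 12, 18 and 8 counts in control libraries and 9, 10, 7 and 9 in MAARS gapmeR libraries. By raw library totals, 3 control libraries and 0 MAARS gapmeR libraries reached the filter's limit of 0.483 CPM. With the filter set to a mean count of at least 10, mt-Tv was tested and called lower by edgeR. With no filter it was tested and not called. The remaining tRNA genes outside the copied stretch averaged at most 6.63 counts per library. Inside the stretch mt-Td, mt-Tk, mt-Tg and mt-Tr had 0 counts in all 8 libraries, which allows up to 0.156 CPM at the lowest depth. The 11 genes inside summed to 2 to 16 counts per control library and 21 to 32 per MAARS gapmeR library, where the 7 countable mRNAs outside or partly outside it gave 75585 to 106065 and 146830 to 179354. mt-Co3, for example, which encodes a core subunit of cytochrome c oxidase, had 3, 4, 1 and 5 counts in control libraries and 12, 12, 4 and 7 in MAARS gapmeR libraries. Nothing can be said at these counts about the mRNAs of ATP synthase, mt-Atp6 and mt-Atp8, or about mt-Co2, mt-Co3, mt-Nd3 and mt-Nd4l.

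The copy on chromosome 1 held few counts as well. Its 7 pseudogenes together had 117 to 170 counts per control library and 168 to 223 per MAARS gapmeR library. Most of these fell on Gm28438, the copy of mt-Nd3 that is shown above with its distinguishing base, with 112, 102, 84 and 89 counts in control libraries and 91, 142, 115 and 120 in MAARS gapmeR libraries. These groups overlapped, and the log2 fold change of Gm28438 was 0.05 (edgeR's quasi-likelihood test, adjusted p = 0.803). Gm28661, the copy of mt-Co2, had a log2 fold change of 0.83 (edgeR, adjusted p = 0.124), Gm10925, the copy of mt-Atp6, 0.87 (adjusted p = 0.0932), Gm28437, the copy of mt-Co3, 0.35 (adjusted p = 0.286), and Gm10222, the copy of mt-Nd4l, -0.38 (adjusted p = 0.4). None of them passed the test, though Gm28661 did without control gapmeR replicate 5 (adjusted p = 0.0455) and Gm10925 without control gapmeR replicate 2 (adjusted p = 0.0116). Gm13340, a more diverged copy of mt-Co1 on chromosome 2 with 97.6% identity, did not pass it either (log2 fold change -0.02, adjusted p = 0.969).

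Nuclear genes that make, process and degrade mitochondrial RNA, and other nuclear genes linked to mitochondria, were taken from 11 lists. Transcription factors of the mitochondrial genome did not rise as a group. Of 11 tested, 2 rose and 1 fell, a share of 27.3% called beside 45.4% of all genes, with a median log2 fold change of -0.09. The mitochondrial RNA polymerase Polrmt had a log2 fold change of 0.04 (edgeR's quasi-likelihood test, adjusted p = 0.672), the packaging and promoter factor Tfam -0.09 (adjusted p = 0.278) and the elongation factor Tefm -0.37 (adjusted p = 0.0597; past the threshold in 3 of 16 alternatives). Tfb2m, the promoter-melting partner of the polymerase, rose by 0.24 on the log2 scale (adjusted p = 0.048), a call lost in 8 of 16 alternative analyses. Mterf1b, of the termination factor family, rose by 1.04 on the log2 scale (adjusted p = 0.0113), at group means of 0.486 ± 0.187 and 1.01 ± 0.0370 CPM (SD, n = 4 per group), and all 4 MAARS gapmeR libraries but only 2 control libraries reached the filter's limit of 0.483 CPM. It has a close paralog, Mterf1a, with which reads may be shared. Mrpl12, a ribosomal protein that also binds the polymerase, fell by 0.26 on the log2 scale (adjusted p = 0.0033).

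Genes for the stability and decay of mitochondrial RNA mostly fell. Of 19 tested, 12 fell and none rose, beside 24.0% of all genes lower, and the median log2 fold change was -0.23. None was higher at an unadjusted p under 0.05 by edgeR, or by DESeq2 or limma-voom, and the number lower was 9 with upper-quartile factors and 8 with no factors. Pnpt1, the polynucleotide phosphorylase of the mitochondrial degradosome, was at 59.5, 54.8, 63.1 and 63.2 CPM in control libraries and 31.7, 34.3, 35.9 and 30.7 CPM in MAARS gapmeR libraries. Every treated library was well below every control library, and Pnpt1 fell by 0.86 ± 0.0663 (SE) on the log2 scale (edgeR, adjusted p = 5.45e-06), the lowest adjusted p of the list. Its helicase partner Supv3l1 did not pass the test (log2 fold change -0.12, adjusted p = 0.239). The pair of RNA-binding proteins that protects mitochondrial mRNAs was also lower, with Slirp at -0.50 (adjusted p = 2.7e-05) and Lrpprc at -0.23 (adjusted p = 0.01) on the log2 scale, the former with 97.8% of its exon length overlapped by a gene of the other strand. Ptcd2, a pentatricopeptide repeat protein known for its part in cytochrome b mRNA processing, fell by 0.48 on the log2 scale (adjusted p = 0.000121).

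RNA processing and modification enzymes also fell more often than they rose. Of 25 tested, 13 fell and 1 rose, beside 24.0% and 21.3% of all genes, and the median log2 fold change was -0.25 (11 fell with no factors). Nsun3, a methyltransferase of the methionine tRNA, fell by 0.46 on the log2 scale (edgeR, adjusted p = 9.55e-05). Trmt61b, which methylates mitochondrial tRNAs and rRNA, fell by 0.69 (adjusted p = 0.000318), and Hsd17b10, a subunit of the RNase P that cuts the 5′ ends of mitochondrial tRNAs, by 0.28 (adjusted p = 0.000587). The poly(A) polymerase Mtpap did not pass the test (log2 fold change -0.12, adjusted p = 0.106).

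Genes for mitochondrial DNA replication and nucleotide supply were mixed, with 2 higher and 5 lower of 19 tested (36.8% called, beside 45.4% of all genes) and a median log2 fold change of -0.06. The split was 4 higher and 5 lower with upper-quartile factors and 4 and 4 with no factors, where the median was 0.00. Cmpk2, an interferon-inducible kinase of the mitochondrial nucleotide pool, was at 218.7 to 338.5 CPM in control libraries and 25.6 to 54.3 CPM in MAARS gapmeR libraries. It fell by 2.88 on the log2 scale (edgeR, adjusted p = 5.27e-06) and was by far the most changed of the list. Slc25a36, a pyrimidine nucleotide carrier, rose by 0.63 on the same scale (adjusted p = 4.34e-05). Of the replication proteins, the polymerase Polg rose by 0.19 (adjusted p = 0.0172), while the helicase Twnk (0.07, adjusted p = 0.637) and the single-strand binding protein Ssbp1 (0.02, adjusted p = 0.879) did not pass the test on the log2 scale.

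The nuclear-encoded partners of the mitochondrial mRNAs moved little. Of 71 nuclear subunits of the respiratory chain and ATP synthase tested, 8 rose, 13 fell and 50 did not pass the test, a share of 29.6% called beside 45.4% of all genes, and the median log2 fold change was -0.01. The split between higher and lower depended on the scaling, with 24 higher and 7 lower under upper-quartile factors and 25 higher and 5 lower with no factors, where the median was 0.06 and that of the mitochondrial mRNAs 0.84. Within the list, Cox5a, a subunit of cytochrome c oxidase, fell by 0.39 on the log2 scale (edgeR, adjusted p = 6.9e-05), Uqcr11 of complex III rose by 0.42 (adjusted p = 0.0014), and Atp5g1 of the ATP synthase fell by 0.21 (adjusted p = 0.00176). Of 19 membrane and matrix genes often used as measures of mitochondrial content, 1 rose and 10 fell, beside 21.3% and 24.0% of all genes, with a median log2 fold change of -0.14 (2 rose and 7 fell under upper-quartile factors or no factors). The import channel Timm23 fell by 0.40 (adjusted p = 0.000124), the porin Vdac3 by 0.26 (adjusted p = 0.000707) and the adenine nucleotide carrier Slc25a5 by 0.22 (adjusted p = 0.000932), all on the log2 scale. Another porin gene, Vdac1, was the 1 that rose (0.14, edgeR adjusted p = 0.0232). The other 8 did not pass the test, among them Cs (-0.04, adjusted p = 0.513) and Tomm20 (-0.04, adjusted p = 0.462). These lists give levels of nuclear mRNAs, and the number of mitochondria or of mitochondrial genomes was not measured.

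Translation in mitochondria was covered by a pair of lists. Of 15 genes tested for translation factors and other mitoribosome-associated proteins, 7 fell and none rose, beside 24.0% of all genes lower (median log2 fold change -0.09). None was higher at an unadjusted p under 0.05 by edgeR, or by DESeq2 or limma-voom. The number lower was 6 with DESeq2 and 5 with upper-quartile factors or no factors. By p-value the 7 were led by Letm1 (-0.40, edgeR adjusted p = 3.41e-05) and Mpv17l2 (-0.40, adjusted p = 0.00126), neither itself a translation factor. The release factor family member Mtrf1 followed (-0.44, adjusted p = 0.00211). Of 23 aminoacyl-tRNA synthetase genes, 4 rose and 4 fell, 34.8% called beside 45.4% of all genes (median 0.01), and the smallest p-values were those of the lysine enzyme Kars (-0.43, adjusted p = 5.19e-05), the isoleucine enzyme Iars2 (0.35, adjusted p = 0.000707) and Qrsl1 (-0.50, adjusted p = 0.00124), a subunit of the amidotransferase that charges the glutamine tRNA. The synthetases of the tRNAs that rose or fell showed no shared direction, with Pars2 for mt-Tp lower (-0.49, adjusted p = 0.00483) and Ears2 for mt-Te (-0.23, adjusted p = 0.196), Lars2 for mt-Tl1 and mt-Tl2 (-0.08, adjusted p = 0.372) and Fars2 for mt-Tf (0.04, adjusted p = 0.662) not past the test, and these were singled out after their values were seen.

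Regulators of mitochondrial biogenesis were split, with 2 higher and 3 lower of 11 tested, a share of 45.5% called beside 45.4% of all genes (median log2 fold change 0.09; 4 higher and 2 lower with no factors). Gabpb2, a subunit of nuclear respiratory factor GABP, rose by 0.28 (edgeR, adjusted p = 0.00028), and the coactivator Pprc1 and the nuclear receptor Esrra fell by 0.40 (adjusted p = 0.000447) and by 0.31 (adjusted p = 0.000486) on the log2 scale. Among 16 genes of mitophagy and mitochondrial dynamics, 2 rose and 5 fell, a share of 43.8% called that is also near that of all genes (median -0.03; 4 higher, 3 lower and a median of 0.03 with no factors). Pink1, the kinase that marks damaged mitochondria for removal, was at 71.4, 85.8, 74.0 and 65.8 CPM in control libraries and 152.2, 117.4, 129.2 and 135.6 CPM in MAARS gapmeR libraries. Its groups were far apart, with a log2 fold change of 0.85 ± 0.0900 (SE; edgeR, adjusted p = 2.68e-05). The fusion protein Mfn2 and the mitophagy receptor Phb2 fell by 0.21 (adjusted p = 0.00201) and by 0.22 (adjusted p = 0.00387) on the log2 scale.

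Receptors for released mitochondrial RNA and DNA and their adaptors were mostly lower. Of 8 tested, 7 fell and none rose, beside 24.0% of all genes lower, with a median log2 fold change of -1.11 (6 fell with DESeq2, upper-quartile factors or no factors), and none was higher at an unadjusted p under 0.05 or by DESeq2 or limma-voom. Zbp1, a sensor of left-handed nucleic acids, fell by 3.20 on the log2 scale (edgeR, adjusted p = 5.27e-06), Ddx58, which encodes the RNA sensor RIG-I, by 1.74 (adjusted p = 6.89e-06), and Ifih1, which encodes the double-stranded RNA sensor MDA5, by 1.29 (adjusted p = 1.67e-05). Not all of the 8 are cytosolic receptors. The list also held the endosomal receptor Tlr9 (-1.87 on the log2 scale, edgeR adjusted p = 2.64e-05). Mavs (-0.15, adjusted p = 0.0474) and Tmem173 (-0.14, adjusted p = 0.198) are adaptors. Several genes of this list, like Cmpk2 and Pnpt1, are known interferon-induced genes. Their fall and the rise of the mitochondrial mRNAs were measured in the same 8 libraries, and a relation between them was not tested.

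**Figure D5:**
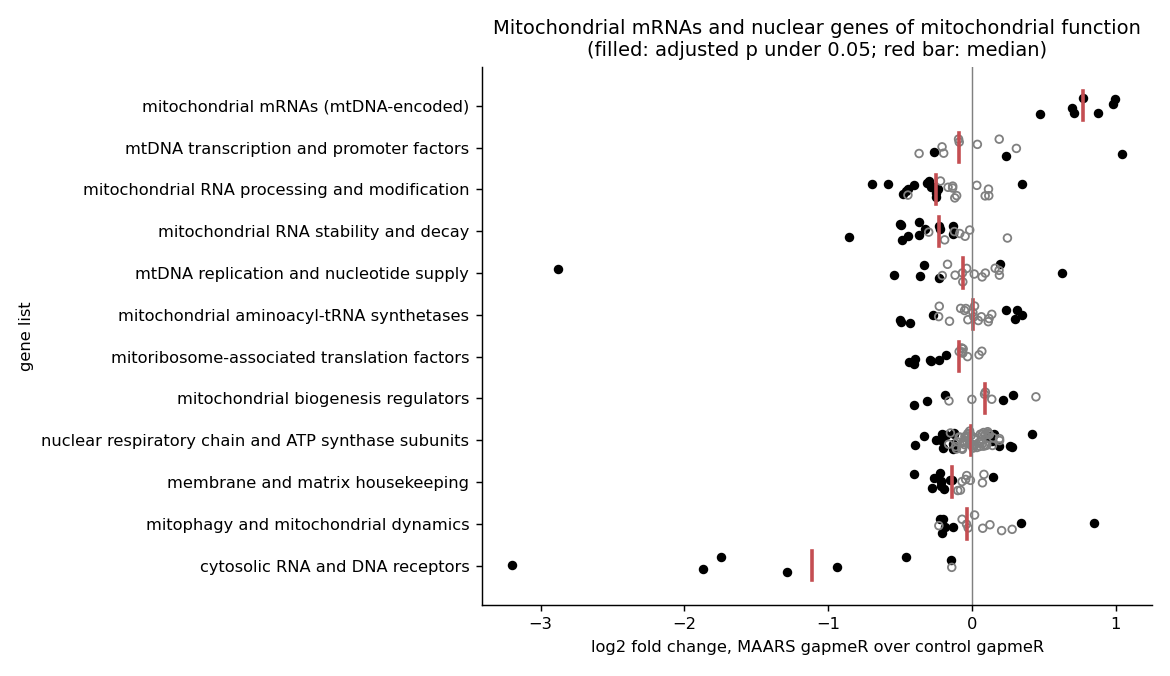
Log2 fold change, MAARS gapmeR over control gapmeR, of the tested genes of 11 nuclear lists and of the 7 mitochondrial mRNAs (top row); each point is a gene, filled points have an adjusted p under 0.05 (edgeR's quasi-likelihood test) and red bars are medians. The mitochondrial mRNAs lie between 0.47 and 0.99 with a median of 0.77. The 71 nuclear respiratory chain and ATP synthase subunits are centred at -0.01. The row labelled cytosolic RNA and DNA receptors, which also holds adaptors and Tlr9, is centred at -1.11.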

How the data were processed

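RNA-Seq libraries of 4 control gapmeR and 4 MAARS gapmeR cultures of BMDMs were grouped by their labels. The authors deposited raw counts per gene. By their methods and processing notes, reads were trimmed with Trimmomatic 0.36, aligned with STAR 2.5.2b to GRCm38 (mm10) with Ensembl transcripts, and counted with featureCounts (Subread 1.5.2). Strand setting, treatment of multi-mapping reads and the counting of reads or fragments are not given in the sources used here, so mitochondrial genes with a nuclear copy and genes overlapped on the other strand may be undercounted or mixed.

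Counts were analysed in R 4.3.3 with edgeR 4.0.16: filterByExpr (minimum count 10, minimum total 15; 13051 genes kept), TMM factors, glmQLFit and glmQLFTest, with Benjamini-Hochberg adjustment over all genes tested and calls at an adjusted p under 0.05, two-sided. CPM of genes were TMM-normalized, while the limits for a count of 0 and for the filter used raw library totals. Shares used all counts on genes. Standard errors were the absolute log2 fold change over the square root of F. Alternatives were RLE factors, upper-quartile factors, no factors, mitochondrial genes left out of totals and factors, DESeq2 1.42.0, limma-voom (limma 3.58.1), no filter, a mean count of at least 10, and each library left out in turn. Positions, strands, overlaps and sequences came from GENCODE M21 transcripts on GRCm38, and shared sequence was searched as identical 100-base stretches on either strand. Over 12 pairs of replicates the chi-square per gene was 4.02 to 14.1, so no pair agreed within sampling noise. On simulated counts of 12915 genes with 200 changed by 1 on the log2 scale, up or down at random, edgeR recovered 87.5%, and 6.91% of its calls were unchanged genes. In the data 45.4% of the genes tested were called, so these rates describe the simulated setting only. No per-sample column was left out.

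The genes named were all mt- genes, from each mitochondrial list the 3 with the lowest p (1 of them is not reported here), 12 fixed genes of mitochondrial RNA and DNA metabolism, nuclear pseudogenes with a near-identical copy, and MAARS. A few further list members are named to show what a list holds or how its other genes went. The members and the lists were chosen with earlier results of these data known.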

Additional observations from a re-analysis of the deposited data

Results flagged for a closer look

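Within each group of 4 libraries, a library was singled out where its gap to its nearest neighbour, divided by the group's range, exceeded Dixon's critical value at 95%, which chance does in about 1 in 20 groups. Of 130 groups examined, 8 passed. Among the tRNA genes these were mt-Te in control gapmeR replicate 6, the lowest (gap ratio 0.941), mt-Te in MAARS gapmeR replicate 15, the highest (0.882), and mt-Tl2 in MAARS gapmeR replicate 11, the highest (0.875). None of the 7 mitochondrial mRNAs was among them. The others were Slirp in control replicate 5, the lowest (0.868), Ptcd2 in MAARS gapmeR replicate 13, the highest (0.83), Kars in control replicate 7, the highest (0.896), Tfam in MAARS gapmeR replicate 15, the highest (0.85), and the pseudogene Gm10222 in MAARS gapmeR replicate 13, the highest (0.848).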

How the results depend on the processing

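No paired analysis was possible because the control and MAARS gapmeR libraries share no replicate number. The 7 mitochondrial mRNAs kept their direction and call in all 16 alternatives, with a median log2 fold change over the 7 of 0.70 to 0.87, and the log2 ratio of the mitochondrial share, 0.71, was 0.64 to 0.80 in 10. Calls among mitochondrial genes numbered 10 to 13 in all and 9 to 10 higher. The genes called lower, 2 in the report, numbered 1 with upper-quartile factors, with no factors, with DESeq2 and with no filter, 0 with limma-voom (where mt-Tf had an adjusted p of 0.0513), 3 with a mean count of at least 10, and 1 to 2 with a library left out; mt-Tl2 reached an adjusted p of 0.141. For 5 genes that were not called, signs turned: with a library left out, the log2 fold change of mt-Ta ran from -0.012 to 0.177, of mt-Ty from -0.027 to 0.34, of Ssbp1 from -0.029 to 0.056, of Gm28438 from -0.014 to 0.127 and of Gm13340 from -0.21 to 0.14, and the log2 fold change of Gm13340 was 0.045 with upper-quartile factors, 0.047 with no factors and 0.0138 with limma-voom. Lrpprc lost its call with no factors (adjusted p = 0.0542) and Polg without control gapmeR replicate 6 (adjusted p = 0.058), and calls were gained by Mtpap without control gapmeR replicate 5 (adjusted p = 0.0374) and by Tefm in 3 alternatives (lowest adjusted p = 0.015). The cause of these changes was not tested. Upper-quartile factors and no factors moved the median of all genes to 0.07 and the share of calls that were higher from 47.0% to 60.4% and 60.9%. Of the tRNA genes, 13 had too few counts to test in the main fit, among them 5 inside the copied stretch, where the cause of the low counts was not tested.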
